A study of Homo sapiens and Mus musculus with 6 samples.

Results

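The TNF superfamily genes were read as promoter baits in 2 lists of significant Promoter Capture Hi-C interactions. Members were the baits named for a gene whose symbol starts with TNFSF or TNFRSF, together with CD40, CD27, CD70, FAS, FASLG and LTBR. In all, 36 members had at least 1 interaction, 12 ligand genes and 24 receptor genes, out of 28711 gene symbols on baits with an interaction in either list. The human list named 27 members out of 20458 symbols, and the mouse list named 27 out of 16133. Promoter Capture Hi-C (CHi-C) joins DNA fragments that lie close together in the nucleus, cut here with the restriction enzyme HindIII, and enriches the joined pairs in which 1 fragment (the bait) carries an annotated promoter. The fragment at the far side is called the other end, and an interaction between baits is called bait-to-bait. The human cells were GM12878, a lymphoblastoid line made from B lymphocytes, with 3 CHi-C samples. The mouse cells were embryonic stem cells (mESCs) of the J1 line, strain 129S4/SvJae, with 2 CHi-C samples and 1 Hi-C sample made without capture, expanded on feeder fibroblasts before collection. No agent or genetic change was compared. Each list pooled the samples of its cell type, so every value below is a single value per cell type with no replicate error, and no test between cell types was possible. Species, cell type, bait design and library differed together and cannot be told apart. Each cell type is represented by a single cell line, and neither expression nor chromatin marks were read in the files used here, so the labelled cell types could not be checked against their markers.

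TNF superfamily ligands are mostly trimeric membrane proteins, some of them shed, that cluster receptors on the same or a neighbouring cell. The receptors carry cysteine-rich repeats outside the cell. Inside, a group of them holds a death domain that binds TRADD or FADD and can start caspase cleavage. Many of the others, though not all, bind TRAF adaptors that lead to NF-kB and kinase signalling. In B lymphocytes CD40, TNFRSF13B, TNFRSF13C and TNFRSF17 carry signals for activation and survival, and CD27 and CD70 form a receptor and ligand pair of activated lymphocytes.

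The TNFRSF21 promoter contacted intergenic fragments in both species that hold DNA aligning between them. TNFRSF21 encodes death receptor 6. Its bait lies at chr6:47277584-47286611 in the human genome (build hg19) and at chr17:43152317-43153590 in the mouse genome (build mm9). All 3 interactions in GM12878 and all 7 in mESCs lay downstream along the gene's strand, between 215.6 and 251.0 kb in GM12878 and between 196.2 and 250.9 kb in mESCs. Of the 10 other ends, 9 held no annotated gene and the remaining mouse fragment held the start of Gpr110. The highest-scoring GM12878 contact was a fragment of 419 bases at 215.6 kb (15 reads, score 9.86), and the highest-scoring mESC contact was a fragment of 8753 bases at 212.4 kb (11 reads, score 16.40). The score is the authors' weighted −log p-value against a background that falls with distance, and every listed interaction has a score of at least 5. Alignment of the contacted fragments gave 3 blocks in the same order in both genomes, spread over 4464 bases in human and 4415 bases in mouse. Counted outward from the promoter, the first block aligned over 336 positions at 73.2% identity, the second over 258 positions at 75.6% and the last over 267 positions at 77.2%. Each block had a single match in each genome, at the contacted fragment. No other bait in either list contacted these fragments. The sequences are shown because they are aligned stretches within fragments that the promoter contacted in both cell types. Contacts were called per HindIII fragment, so which bases within a fragment are reached cannot be told. Capitals mark runs of at least 8 aligned bases that are identical in human and mouse, human is given on the plus strand and mouse on the minus strand, and the first block is printed for its first 300 human bases, over which identity was 72.5%.
First block, human, chr6:47066310-47066609: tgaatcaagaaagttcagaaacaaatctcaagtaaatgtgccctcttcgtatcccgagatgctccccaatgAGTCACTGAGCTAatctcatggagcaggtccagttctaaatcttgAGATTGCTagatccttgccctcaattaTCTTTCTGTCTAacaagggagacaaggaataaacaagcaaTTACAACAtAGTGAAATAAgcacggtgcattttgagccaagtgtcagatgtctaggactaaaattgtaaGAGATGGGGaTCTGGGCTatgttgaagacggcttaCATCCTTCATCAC
First block, mouse, chr17:43365739-43366034: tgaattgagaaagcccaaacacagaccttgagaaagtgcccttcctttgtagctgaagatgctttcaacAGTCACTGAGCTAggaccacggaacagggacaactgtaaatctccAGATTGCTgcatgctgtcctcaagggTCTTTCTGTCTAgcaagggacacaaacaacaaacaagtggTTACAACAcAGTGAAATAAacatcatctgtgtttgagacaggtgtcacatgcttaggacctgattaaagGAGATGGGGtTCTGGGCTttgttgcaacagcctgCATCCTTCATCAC
Second block, human, chr6:47065213-47065463: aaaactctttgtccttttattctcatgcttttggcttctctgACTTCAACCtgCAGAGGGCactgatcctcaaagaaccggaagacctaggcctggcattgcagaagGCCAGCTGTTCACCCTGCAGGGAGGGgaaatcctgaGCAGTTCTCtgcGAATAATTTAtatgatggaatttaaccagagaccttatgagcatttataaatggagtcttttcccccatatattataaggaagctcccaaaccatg
Second block, mouse, chr17:43366821-43367072: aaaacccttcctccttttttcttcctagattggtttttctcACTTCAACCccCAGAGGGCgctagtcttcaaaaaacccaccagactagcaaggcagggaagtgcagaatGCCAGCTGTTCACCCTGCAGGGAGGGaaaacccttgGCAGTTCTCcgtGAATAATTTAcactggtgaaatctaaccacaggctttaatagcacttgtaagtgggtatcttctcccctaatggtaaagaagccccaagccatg
Last block, human, chr6:47062176-47062440: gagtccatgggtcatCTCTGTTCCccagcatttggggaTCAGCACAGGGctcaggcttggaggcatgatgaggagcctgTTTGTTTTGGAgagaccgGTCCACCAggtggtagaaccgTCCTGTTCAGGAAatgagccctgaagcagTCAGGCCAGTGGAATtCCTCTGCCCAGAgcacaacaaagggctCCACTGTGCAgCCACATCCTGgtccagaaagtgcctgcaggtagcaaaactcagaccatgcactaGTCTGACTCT
Last block, mouse, chr17:43369865-43370123: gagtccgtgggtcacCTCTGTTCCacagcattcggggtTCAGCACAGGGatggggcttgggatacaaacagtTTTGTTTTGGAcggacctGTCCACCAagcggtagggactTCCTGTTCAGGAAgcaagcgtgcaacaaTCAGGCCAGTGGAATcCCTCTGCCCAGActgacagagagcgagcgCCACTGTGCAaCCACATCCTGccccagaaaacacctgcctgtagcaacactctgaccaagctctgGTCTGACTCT

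The first block filled most of the small GM12878 fragment with the highest score. The second and last blocks shared a GM12878 fragment at 221.8 kb (12 reads, score 6.98). In mESCs the first and second blocks lay in the fragment with 11 reads, and the last lay in the neighbouring fragment at 217.3 kb (7 reads, score 9.14). The mESC Hi-C was 1 library, not enriched for promoters, which the paper describes as pre-capture data. The paper takes it from the same earlier study as the mESC CHi-C, so the 2 may not be independent. The Hi-C held a significant contact between the 25-kb bins of the Tnfrsf21 promoter and of these fragments, with 31 read pairs against 6.59 expected (FDR 1e-06). In all, 5 of the 7 mESC interactions of Tnfrsf21 fell within significant Hi-C bin pairs. Outside TNFRSF21, only TNFRSF1B had an alignment of at least 150 bases between intronic or intergenic other ends of the 2 species, over 183 positions at 68.3% identity. TNFRSF21 was chosen for this description after the alignments of 18 members had been seen.

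**Figure D1:**
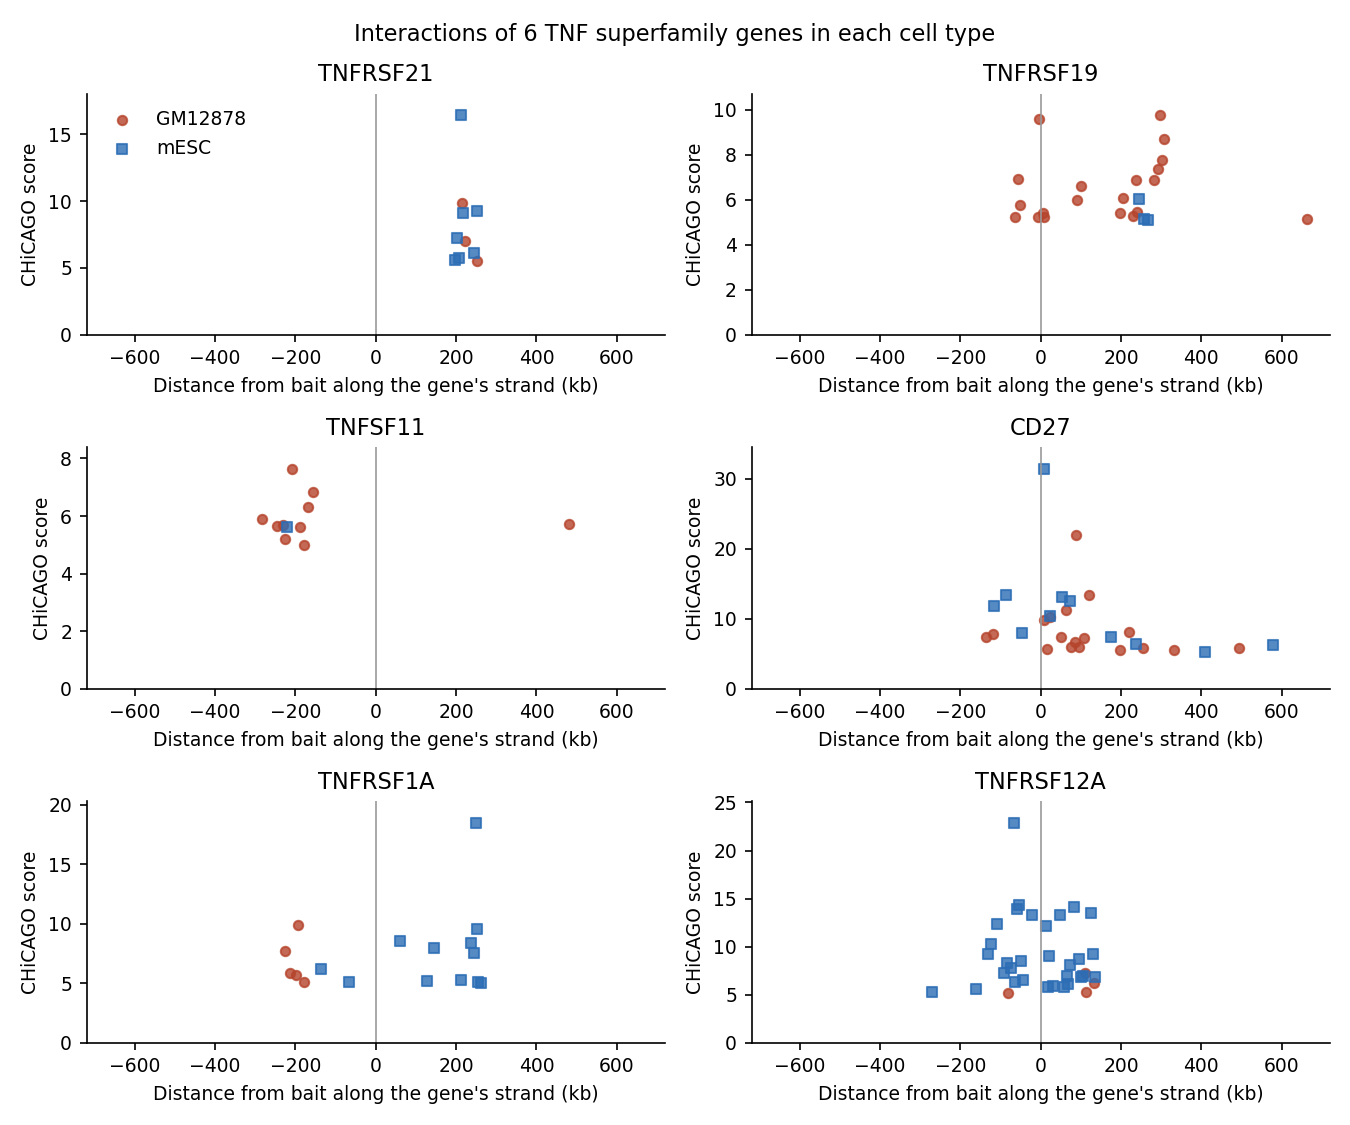
Interactions of 6 genes with baits in both lists, plotted by the distance from the bait to the other end along the gene's strand (x axis, kb, positive downstream) and by CHiCAGO score (y axis), with circles for GM12878 and squares for mESC. TNFRSF21 contacts of both cell types sit together between 196.2 and 251.0 kb downstream, and TNFRSF1A contacts are all upstream in GM12878. A single mESC contact of Tnfsf11 at 1319 kb lies outside the plotted range.

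The member baits gave 172 interactions on 25 baits in GM12878 and 205 on 27 baits in mESCs, out of 92929 and 101841 listed interactions. The median member bait had 4 interactions in GM12878 and 6 in mESCs, beside 3 over all baits of each list. In GM12878 ligand genes had a median of 6 interactions and receptor genes 3.5, and in mESCs these medians were 8 and 5.5. The deposited read count of an interaction, a rounded weighted sum over samples, had a median of 14 in both cell types for the members (range 5 to 103 in GM12878 and 3 to 106 in mESCs). Over all interactions that median was 16 in GM12878 and 13 in mESCs. The lists hold called pairs only, so the total depth of the libraries cannot be read from them. The paper reports more unique captured read pairs in all for GM12878 than for mESCs, and the interaction counts here were not adjusted for that depth. No member interaction in GM12878 was between chromosomes, beside 288 of all 92929. In mESCs 3 of the 205 joined different chromosomes, beside 579 of all 101841. Whether the members differ from the whole lists in this was not tested. None in GM12878 spanned more than 1 Mb, for which no share over all interactions is given here.

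Other ends of the members held coding transcription starts at a higher share than the whole list in GM12878, where a few baits weighed heavily. In mESCs the share was near that of the whole list. A coding transcription start lay on 52.9% of member other ends in GM12878 (95% Wilson interval 45.5 to 60.2%), against 37.5% over all interactions. In mESCs the share was 42.9% (interval 36.3 to 49.8%), against 41.4% over all. Much of the GM12878 share came from TNFSF12 (22 of 35 contacts), TNFSF13 (14 of 16) and CD27 (16 of 18). TNFRSF19 (2 of 20) and TNFSF11 (0 of 10) went the other way. Starts of any transcript of a coding gene were counted, so a fragment inside a gene could count. The human annotation was of a much later release than the mouse one, so these shares are not like for like between the cell types. Intergenic other ends made up 8.72% of member interactions in GM12878 and 22.9% in mESCs, against 15.3% and 21.4% over all. Bait-to-bait interactions made up 45.9% of member interactions in GM12878 (interval 38.7 to 53.4%), against 29.4% over all, and 36.6% in mESCs (interval 30.3 to 43.4%), against 36.3%. On the human baits that name members only, the bait-to-bait share was 33.9%. The difference between members and the whole list was not tested. The intervals cover counting error only, and interactions of 1 bait are not independent. Member interactions spanned a median of 162.4 kb in GM12878 (all interactions 173.7 kb) and 102.6 kb in mESCs (all interactions 139.1 kb).

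**Figure D2:**
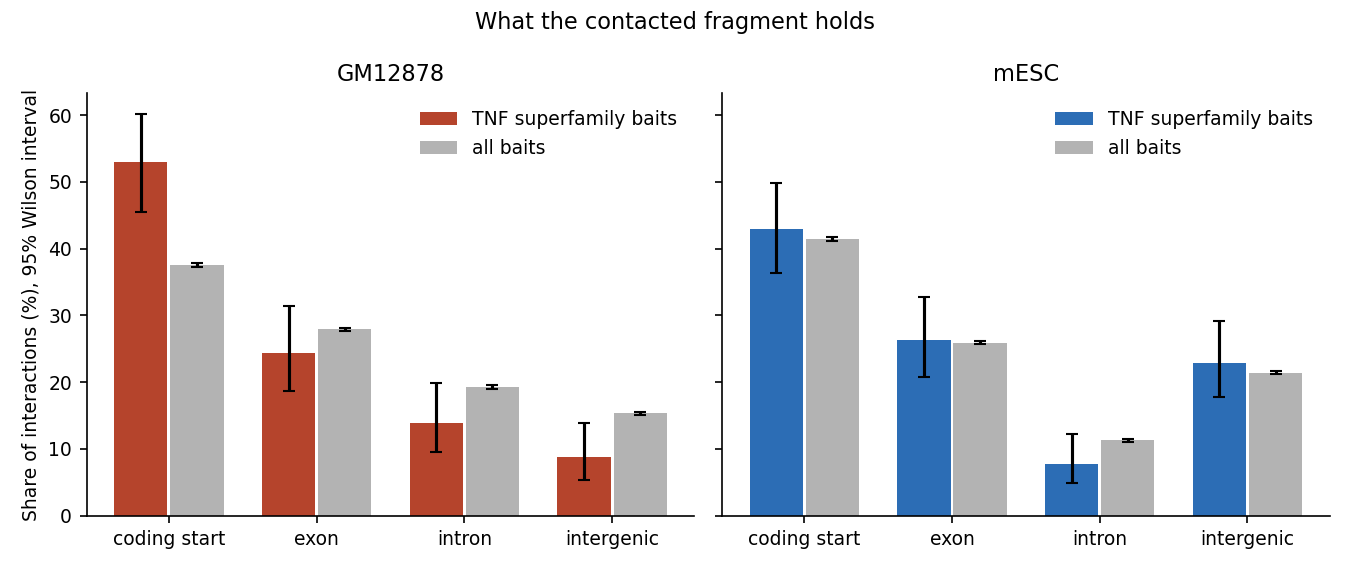
Share of interactions (y axis, %) whose other end holds a coding transcription start, an exon, an intron or no gene, in GM12878 (left) and mESC (right), for TNF superfamily baits (coloured) and all baits (grey), with 95% Wilson intervals as error bars. The coding start bar of the members stands at 52.9% in GM12878 above the 37.5% of all baits, and in mESC the bars stand at 42.9% and 41.4%.

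The ligand TNFSF12 and its receptor TNFRSF12A had different balances in the 2 cell types. TNFSF12 encodes TWEAK, and TNFRSF12A encodes its receptor Fn14. The TNFSF12 bait (human chr17:7447343-7457281, mouse chr11:69504488-69512609) had 35 interactions in GM12878, the most of any member there, and 27 in mESCs. In GM12878 the bait also names the TNFSF12-TNFSF13 read-through gene, and 32 of its 35 contacts lay upstream of the gene. Its highest score was 23.38 (58 reads) with an intron of POLR2A, the gene of the largest RNA polymerase II subunit, at 57.9 kb, and 6 of its other ends held POLR2A. In mESCs the highest score was 15.76 (24 reads) at 223.5 kb, with a fragment that holds the starts of Eif5a and Gps2. Of 28 genes on the human other ends and 31 on the mouse ones, 12 were shared, POLR2A, NEURL4, GPS2, TMEM102 and FXR2 among them, which is 42.9% of the human and 38.7% of the mouse partners. TNFRSF12A had 4 interactions in GM12878, on a bait that also names CLDN6, and 31 in mESCs. Its mESC contacts lay on both sides, 16 downstream and 15 upstream, with a highest score of 22.82 (34 reads) at the Kremen2 start, 67.5 kb away. The highest score of the 4 GM12878 contacts was 7.24 (22 reads), and FLYWCH1 was the only partner gene found in both lists. TNFSF13 encodes APRIL and had 16 interactions in GM12878 on a bait it shares with SENP3, of which 15 were bait-to-bait. In the mouse annotation the Tnfsf13 start lies on a fragment that the list names for Senp3 alone, so the naming rule left it out.

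CD27 contacted fragments of the same neighbouring genes in both genomes. CD27 is the receptor of CD70. Its bait (human chr12:6553533-6554821, mouse chr6:125185023-125193819) had 18 interactions in GM12878 and 11 in mESCs. The GAPDH promoter, 89.1 kb away, gave the highest score in GM12878, 22.02 with 33 reads, and in mESCs Gapdh scored 12.51 with 13 reads at 73.0 kb. The highest score in mESCs was 31.35 (62 reads) with the Tapbpl fragment at 9.26 kb. Read from the Tapbpl bait, the same pair scored only 5.55, so the score depends on which end is the bait. The human counterpart, the TAPBPL fragment at 9.46 kb, scored 9.82 with 49 reads. VAMP1 was contacted in both lists with nearly equal scores, 10.20 in GM12878 at 23.6 kb and 10.37 in mESCs at 23.8 kb. The shared partner genes were ACRBP, GAPDH, NCAPD2, TAPBPL, TNFRSF1A and VAMP1, 27.3% of the human and 42.9% of the mouse partners. All 11 mESC interactions and 12 of the 18 in GM12878 were bait-to-bait.

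TNFRSF1A and LTBR lie near CD27, and in mESCs their baits had contacts on Vwf that were not listed in GM12878. TNFRSF1A encodes the main receptor of TNF, and LTBR the lymphotoxin beta receptor. All 5 GM12878 contacts of TNFRSF1A lay upstream, between 179.6 and 225.7 kb, with GAPDH giving the highest score (9.92, 20 reads). In mESCs 11 of 13 contacts lay downstream, and 7 fell on Vwf, the gene of von Willebrand factor, between 212.8 and 262.2 kb, with a highest score of 18.43 (24 reads). Of the 7, 5 lay within a significant Hi-C bin pair with 18 read pairs against 3.98 expected (FDR 0.0174). Ltbr in mESCs had 6 contacts, 3 of them on Vwf (highest score 9.25, 11 reads), and also contacted Tnfrsf1a at 41.7 kb (32 reads, score 6.69) and Gapdh. LTBR in GM12878 had 2 contacts, with CHD4 and IFFO1 fragments, at scores of 5.77 and 5.21. The human LTBR bait also names SCNN1A. Read from the members' own baits, TNFRSF1A and LTBR had no partner gene in both lists. Read from either side, TNFRSF1A shared CHD4, GAPDH and NCAPD2 and LTBR shared CHD4 and IFFO1, since in mESCs the baits of those genes reached Tnfrsf1a (Gapdh with 13 reads and a score of 7.19, Ncapd2 with 6 reads and a score of 8.13) and Ltbr (Chd4 with 9 reads and a score of 8.39, Iffo1 with 8 reads and a score of 7.85).

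Of the 18 members listed in both species, 4 had at least 2 times as many interactions, and at least 3 more, in GM12878, and 7 had so in mESCs, while 7 did neither. Over all 8690 matched symbols, 24.8% passed this rule in the GM12878 direction and 26.4% in the mESC direction. Whether the member counts differ from these shares was not tested. The median over the 18 members was 5 interactions in GM12878 and 7 in mESCs, and over all matched symbols it was 4 in each. The 4 members higher in GM12878 were TNFRSF19 (20 against 3), TNFSF11 (10 against 2), TNFRSF10B (8 against 3) and TNFRSF8 (4 against 1). The 7 members higher in mESCs were TNFRSF12A, TNFSF14 (8 against 1), TNFRSF1B (15 against 5), TNFRSF1A (13 against 5), LTBR (6 against 2), TNFRSF17 (5 against 2) and TNFRSF21 (7 against 3). CD27, TNFRSF11A, TNFRSF14, TNFRSF18, TNFRSF4, TNFSF12 and TNFSF4 passed in neither direction. At a score of at least 10, none of the 4 passed in the GM12878 direction and only TNFRSF12A of the 7 passed in the mESC direction.

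**Figure D3:**
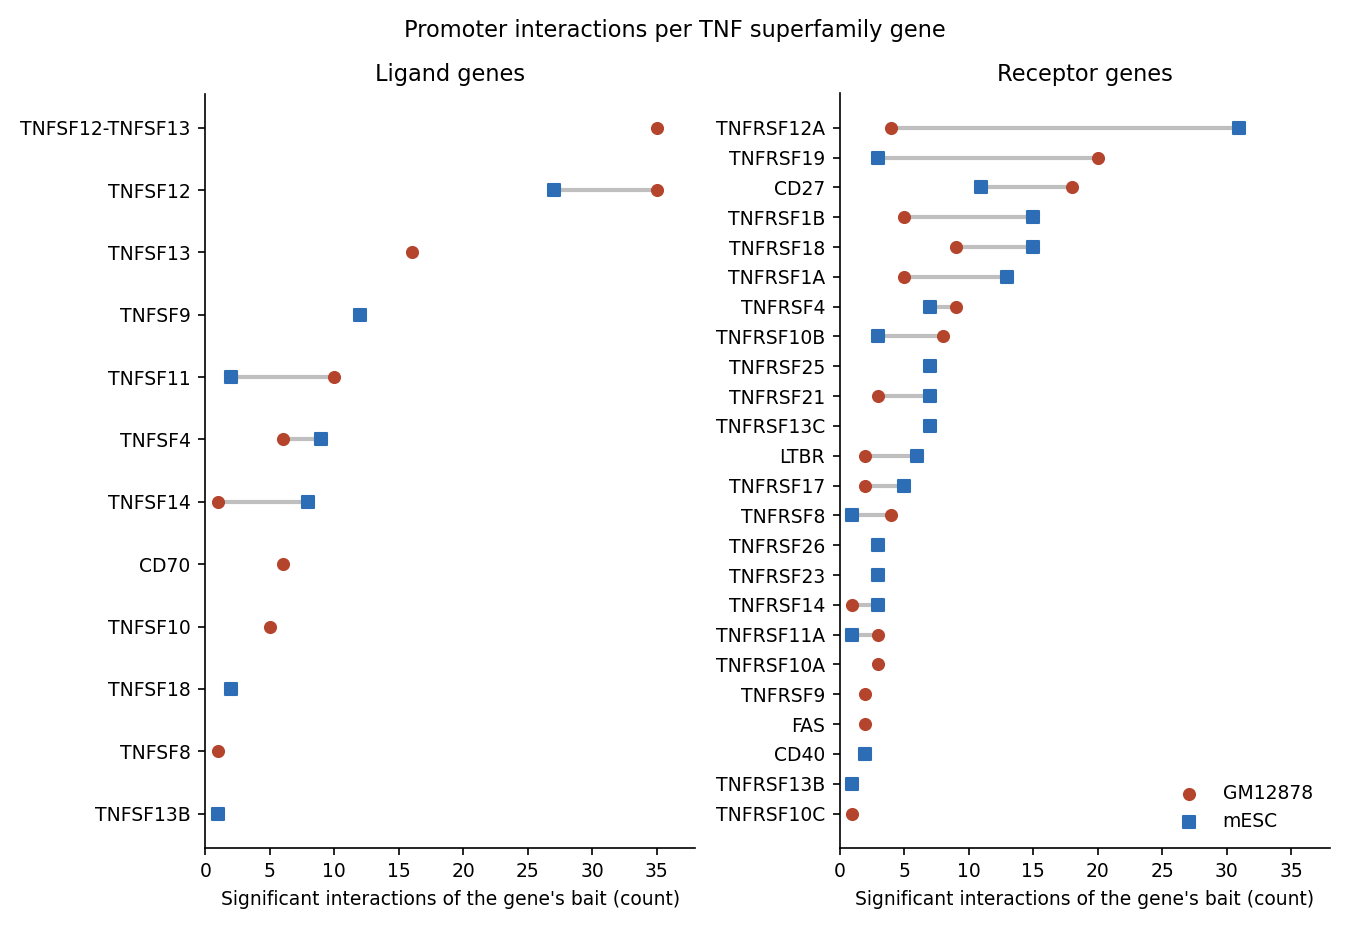
Number of significant interactions per TNF superfamily gene (x axis, count) for ligand genes (left) and receptor genes (right), with circles for GM12878, squares for mESC and a grey line joining genes named on baits in both lists. A gene with a single symbol is named in 1 list only. TNFRSF12A shows the widest gap, 4 against 31, and TNFRSF19 the widest in the other direction, 20 against 3.

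Among the members higher in GM12878, TNFRSF19 and TNFSF11 reached only unbaited fragments in that cell type. TNFRSF19 encodes TROY, a receptor known from skin and brain. Of its 20 contacts in GM12878, 10 fell on MIPEP, a mitochondrial peptidase gene downstream, between 198.4 and 306.2 kb with scores of 5.26 to 9.74, and 2 of the 3 mESC contacts fell on Mipep too, at 244.1 and 257.2 kb with scores of 6.04 and 5.16. TNFSF11 encodes RANKL, the osteoclast differentiation factor. In GM12878, 9 of its 10 contacts lay upstream and 5 of them fell on the non-coding RNA gene LINC02341, with a highest score of 7.62 (18 reads) at 207.5 kb. AKAP11, beyond it, was contacted in both lists, by 2 fragments in GM12878 (highest score 5.89) and by the Akap11 start in mESCs at 221.0 kb (16 reads, score 5.61). TNFRSF11A, which encodes the RANKL receptor RANK, had 3 contacts in GM12878 (highest score 6.33) and 1 in mESCs (score 7.25). TNFRSF10B encodes a death receptor for TRAIL, and all 8 of its GM12878 contacts were bait-to-bait, the highest with BIN3 at 396.9 kb (8 reads, score 9.48). Its 3 mESC contacts included 2 on Rhobtb2, with a highest score of 6.55. TNFRSF8 encodes CD30, and its highest score was 11.18 (16 reads) in GM12878, with KIAA2013 at 136.5 kb, and 5.08 in mESCs, within the gene itself.

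Among the members higher in mESCs, TNFRSF1B and TNFSF14 had mostly short contacts there. TNFRSF1B encodes the second TNF receptor, which lacks a death domain. Its 15 mESC contacts had a median distance of 34.6 kb and none was bait-to-bait, and the highest score, 13.37 (20 reads), lay in an intron of the neighbouring Tnfrsf8. Of them, 7 fell within significant Hi-C bin pairs. In GM12878 the median distance of its 5 contacts was 190.9 kb and 4 were bait-to-bait, the highest with MFN2 (14 reads, score 10.86). TNFSF14 encodes LIGHT, a ligand of TNFRSF14 and LTBR, and its 8 mESC contacts ran from 11.6 to 156.7 kb, on C3, Cd70, Tubb4 and Tnfsf9 fragments among others. Its single GM12878 contact, on a TUBB4A fragment, had a score of 5.34 (19 reads). TNFRSF17 encodes BCMA, a receptor of plasma cells. Fragments within SNX29 were contacted in both lists, at 18.5 and 25.8 kb in GM12878 (highest score 7.47, 34 reads) and between 96.2 and 102.8 kb in mESCs (highest score 15.85, 36 reads). The human TNFRSF17 bait also names SNX29, so the GM12878 contacts cannot be assigned to TNFRSF17.

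Of the members with interactions in both lists, 9 of 18 shared at least 1 partner gene between human and mouse. Over all 7880 symbols with interactions in both lists, 49.6% did so, a share close to that of the members. TNFRSF17 entered it through SNX29, which is on its own human bait, and TNFSF14 did not enter it because the contacted gene is named TUBB4A in human and Tubb4 in the mouse annotation. The 9 were CD27, TNFRSF12A, TNFRSF17, TNFRSF18, TNFRSF19, TNFRSF1B, TNFRSF4, TNFSF11 and TNFSF12. Partners were counted by gene name, so an intergenic contact such as that of TNFRSF21 could not enter this count, and names that differ between the species were not matched over all symbols. The count was read from the members' own baits. Read from either side, LTBR, TNFRSF1A, TNFRSF21 (GPR110) and TNFSF14 (C3) also shared a partner gene, and no share over all symbols was obtained for that reading.

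Clustered members contacted each other in 10 interactions, counting only other ends named for a member. In GM12878 CD70 contacted TNFSF14 at 73.6 kb (10 reads, score 5.11), and TNFRSF10B contacted a fragment named for TNFRSF10C (14 reads, score 5.00) and the bait of TNFRSF10A (7 reads, score 6.05), both receptor genes of the same group. The fragment named for TNFRSF10C lies outside the gene in the annotation used here, so that name is uncertain. All 3 of these scores stood near the lower limit of 5. In mESCs Tnfsf9, a ligand gene of the same cluster as Tnfsf14, contacted Tnfsf14 at 87.9 kb with 19 reads, at a score of 8.22 from the Tnfsf9 bait and 8.98 from the Tnfsf14 bait. Tnfrsf4 and Tnfrsf18, which encode the superfamily receptors OX40 and GITR, contacted each other at 11.3 kb with 106 reads, at scores of 17.33 and 6.05. In human both genes share a single bait, so that contact could not be seen there. Tnfsf18, the GITR ligand gene, contacted Tnfsf4, the OX40 ligand gene, at 102.0 kb (8 reads, score 8.52), and Cd27 contacted Tnfrsf1a at 115.7 kb (10 reads, score 11.89). Fragments that overlap another member gene without carrying its name were contacted too and are not among the 10. In GM12878 CD27 contacted such a fragment of TNFRSF1A at 118.2 kb (9 reads, score 7.80). TNFRSF1B contacted TNFRSF8 in both lists, and in mESCs Tnfsf9 and Tnfsf14 contacted Cd70.

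The bait of TNFRSF18 and TNFRSF4 held the highest score of any member in GM12878. Its contact with the UBE2J2 fragment at 70.9 kb scored 24.96 with 22 reads, and all 9 of its contacts were bait-to-bait. Read from the UBE2J2 bait, the same pair scored 5.65, near the lower limit of 5. The separate mouse baits had 15 contacts (Tnfrsf18) and 7 (Tnfrsf4), and TTLL10 was a partner gene of both in human and in mouse, though the human bait itself overlaps exons of TTLL10. TNFSF4 had 6 contacts in GM12878, between 197.8 and 459.7 kb, with a highest score of 10.06 (13 reads) at 433.2 kb, on an exon of a non-coding RNA gene. In mESCs its 9 contacts all lay downstream, and the highest score was 10.93 (13 reads) on an intergenic fragment at 292.4 kb that fell within a Hi-C bin pair with 26 read pairs against 5.30 expected (FDR 3.9e-05). TNFRSF14, which encodes the LIGHT receptor HVEM, had 1 contact in GM12878 (score 5.10) and 3 in mESCs (highest score 6.46). The human TNFRSF14 bait also names HES5.

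Of the 36 members, 18 had interactions in 1 list only, 50.0%, against 72.6% of all 28711 symbols. These shares are not like for like, because the whole set includes symbols used in 1 species only, which cannot match. Several symbols stood on 36.1% of human bait names and on 0.0369% of mouse ones. Several receptor genes of B lymphocytes were among them. CD40, TNFRSF13B and TNFRSF13C, with TNFRSF25, TNFSF9, TNFSF13B and TNFSF18, had no interaction in GM12878 and were not named in that list at all. Their mESC counts were 7 for Tnfrsf13c, the gene of the BAFF receptor, 7 for Tnfrsf25, 12 for Tnfsf9, 2 each for Cd40 and Tnfsf18, and 1 each for Tnfrsf13b and Tnfsf13b. Tnfrsf13c contacted a fragment of the gene 4930407I10Rik at 159.2 kb with a score of 10.29 (12 reads), and the highest score of Tnfsf9 was 14.20 (14 reads) on intergenic DNA at 230.3 kb. Tnfrsf23 and Tnfrsf26, receptor genes known from rodents, had 3 contacts each. In the other direction CD70 (6 contacts), TNFSF10 (5), TNFRSF10A (3), FAS (2), TNFRSF9 (2), TNFRSF10C (1) and TNFSF8 (1) were named in GM12878 only. CD70 reached the RFX2 promoter at 480.5 kb (8 reads, score 9.12), and all 6 of its contacts were bait-to-bait. TNFSF10, the gene of TRAIL, had a highest score of 9.81 (20 reads) at 55.3 kb in LINC02068. The bait of FAS, a death receptor gene, contacted LIPA at 221.9 kb (11 reads, score 6.37) and ANKRD22. That bait also names ACTA2, so these contacts cannot be assigned to FAS alone. Of 39 coding members in the human annotation, 12 were not named on a bait with an interaction, and of 36 in the mouse annotation, 9 were not. Beside the genes above, these were FASLG, TNFRSF10D, TNFRSF11B, TNFRSF6B and TNFSF15 in human, and in mouse Cd70, Fas, Tnfrsf11b, Tnfrsf22, Tnfrsf9, Tnfsf10, Tnfsf15 and Tnfsf8. Starts of Tnfrsf9 and Tnfrsf22 lie on mouse baits with interactions that are named for Park7 and Tnfrsf26, as that of Tnfsf13 lies on the Senp3 bait, and the human TNFRSF13B start lies on a fragment listed only as an unnamed other end. For the others, whether they were baited was not given in the sources used here.

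In mESCs 30 of the 201 member interactions under 1 Mb, 14.9% (95% Wilson interval 10.7 to 20.5%), fell within a pair of 25-kb bins that the Hi-C called significant at an FDR under 0.05. Over all interactions under 1 Mb the share was 11.6%, which lies within that interval. The interval covers counting error only and takes interactions as independent, whereas several of 1 bait often fell in the same bin pair. Whether the members differ from all interactions was not tested. The 30 came from 8 members, Tnfrsf1b with 7, Tnfsf12 with 6, Tnfrsf1a and Tnfrsf21 with 5 each, Cd27, Tnfrsf13c and Tnfsf4 with 2 each and Tnfrsf18 with 1. None of the 31 interactions of Tnfrsf12a fell within a significant bin pair. For GM12878 no Hi-C list was used.

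Several genes that act downstream of the receptors had large gaps between the cell types. Of 18 signalling genes, 12 were listed in both species, of which 6 had at least 2 times as many and 3 more interactions in GM12878, beside the 24.8% of all matched symbols, and 4 in mESCs, beside 26.4%. BIRC2, which encodes an inhibitor of apoptosis protein that binds TRAF2, had 58 interactions in GM12878 and 2 in mESCs. TRAF1, an adaptor gene induced by NF-kB, had 53 and 3, with a highest score of 22.38 (41 reads) in PHF19 at 42.6 kb in GM12878. TNFAIP3, which encodes the NF-kB inhibitor A20, had 33 and 5. MAP3K14, the kinase gene of the non-canonical NF-kB pathway, had 15 and 3, CFLAR, an inhibitor of CASP8, had 8 and 2, and CHUK had 5 and 2. The 4 higher in mESCs were TRAF4 (38 against 18), TRAF2 (15 against 6), FADD (15 against 1) and IKBKB (13 against 3). BIRC3 (6 and 6) and TRAF6 (4 and 2) passed in neither direction. Of superfamily genes with other names, TNF had 15 interactions in GM12878, on a bait shared with LTA, and 13 in mESCs. RELT had 4 in GM12878 and 0 in mESCs, CD40LG had 1 and 0, EDAR had 1 and 3 and NGFR had 1 and 1, so only RELT passed the rule. Human EDA2R was listed with no interaction of its own, LTB had 7 interactions in GM12878 and was not listed in mESCs, and EDA and mouse Fasl were not listed.

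**Figure D4:**
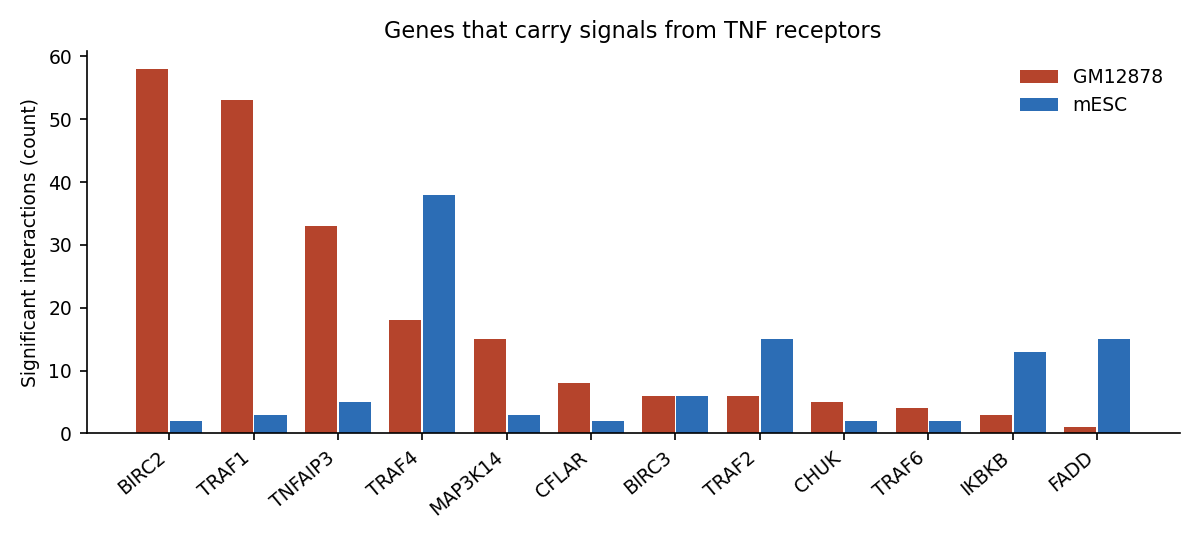
Number of significant interactions (y axis, count) of the 12 signalling genes listed in both species, with GM12878 in red and mESC in blue. BIRC2, TRAF1 and TNFAIP3 stand at 58, 53 and 33 in GM12878 against 2, 3 and 5 in mESC, and TRAF4 stands at 38 in mESC against 18.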

How the data were processed

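CHi-C libraries of GM12878 and mESCs, cut with HindIII, were aligned by the authors to hg19 and mm9 with HiCUP and Bowtie 1.1.0, the version in the submitters' processing notes, and interactions were called jointly on all samples of a cell type with CHiCAGO. The deposited lists give a combined read count, a rounded weighted sum over samples that is treated here as a score, and the CHiCAGO score, at least 5. The deposited mESC Hi-C list, made by the authors with HOMER 4.7, gives the count of read pairs, the expected count and an FDR (adjusted p-value) per pair of 25-kb bins. Its list of 1-Mb bins was not used.

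Here gene symbols were split at semicolons, bars and commas, and transcript suffixes were removed. Of the bait names, 36.1% in GM12878 and 0.0369% in mESCs held several symbols. Genes were matched by symbol. An other end counted as a bait where it carried a name or was itself listed as a bait. Other ends were annotated with GENCODE, a late human release carried over to hg19 and an early mouse release on mm9. These differ in the genes and transcripts they hold, so classes and partner genes are not like for like between the species. All 189 human and 241 mouse member fragments were found in a HindIII digest of the reference. Fragments were aligned with blastn 2.17.0. The comparison rule was tested on simulated data with Python 3.11.15. The members, lists and rules were chosen with earlier results of these data known. Named are the members with the most interactions, those passing the comparison rule, those contacting each other and those in 1 list only.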

Additional observations from a re-analysis of the deposited data

How the results depend on the processing

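The alternatives raised the score limit, took the browser list with each pair once, kept baits that name members only, kept contacts under 1 Mb, changed the fold or scale of the comparison, or, chosen after seeing the data, assigned genes by annotated starts. Of 47 values, 30 kept their level and 17 moved. At a score of at least 10, 22 interactions of 9 members were left in GM12878 and 31 of 12 members in mESCs. The median distance was then 115.8 kb in GM12878 and 78.2 kb in mESCs, the bait-to-bait shares 54.5% and 45.2%, the Hi-C share 33.3%, and a single member passed the comparison in each direction (TNFSF12 in GM12878, TNFRSF12A in mESCs). With baits that name members only, 16 members were left in GM12878, their bait-to-bait share was 33.9%, and 3 members passed in the mESC direction. At 3 times as many interactions, 4 members passed in the mESC direction. The Hi-C share was 7.46% at an FDR under 0.01 and 42.3% with every listed bin pair. With genes assigned by annotated starts, 30 members and 242 interactions were found in mESCs, and TNFSF13 joined the members higher there. In GM12878 the same assignment gave 26 members and 171 interactions, without TNFRSF10C. The cause of these moves was not tested. No paired analysis was possible because each cell type's samples were pooled in the deposited lists. The lists hold no pair under the score limit, so a missing interaction shows only that no pair passed it.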

Other observations

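Members were also reached from baits of other genes, in 41 interactions in GM12878 and 71 in mESCs. Of these, 23 and 27 were fragment pairs already listed from the member bait, which left 18 further interactions in GM12878 and 44 in mESCs. TNFSF12 was the other end of 17 of the 41 in GM12878 and of 8 of the 71 in mESCs. Its highest score in GM12878 was 17.38 (27 reads) from the TMEM95 bait, a pair also listed from the TNFSF12 bait. Tnfrsf12a was reached 14 times in mESCs and once in GM12878. Its highest score in mESCs was 19.06 (34 reads) from Kremen2, a pair also listed from the Tnfrsf12a bait. Tnfrsf1a was reached 12 times and Ltbr 11 times in mESCs, against 4 and 2 times in GM12878, from baits on both sides. The Vwf bait reached Tnfrsf1a at 191.9 kb (9 reads, score 12.89), and on the other side the Vamp1 bait reached Tnfrsf1a at 139.5 kb (13 reads, score 10.88) and the Gapdh bait reached Ltbr at 147.0 kb (17 reads, score 9.16).

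The 3 interactions between chromosomes in mESCs joined Tnfrsf18 and Tnfrsf4, on chromosome 4, to 2 fragments of Matr3 on chromosome 18, with 3 to 5 reads and scores of 5.70, 8.46 and 13.90. These 2 fragments received 18 interactions from 12 baits, all on chromosome 4 between 155.2 and 155.6 Mb, with 3 to 10 reads and a highest score of 63.06 from Ube2j2. Whether this reflects proximity between chromosomes was not tested.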
